A study of Mus musculus with 4 samples.

Results

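The genes described here are 35 genes of periotic and head mesenchyme, the loose embryonic connective tissue around the otic vesicle and in the face and skull base. They were chosen by name as mesenchymal transcription factors, receptors, 1 chemokine and matrix genes other than fibrillar collagens. All 35 were found by their GENCODE symbol among the 52636 gene identifiers counted in RNA-seq of mouse cells that were sorted by fluorescence and labelled otic ectoderm. The knockout cells, labelled Brg1cKO, came from otocysts with a conditional knockout of Brg1, the chromatin remodeling ATPase encoded by Smarca4, and the cells they were set against are labelled Control, with 2 libraries of 3000 cells in each group. The labels leave out the Cre driver, the deleted exons, the stage, the reporter used for sorting and how many embryos went into a library. Nor do they tie the replicates to separate litters or sorts, so the p-values cover only how far these particular libraries differ, and that spread may be technical.

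Periotic mesenchyme arises from neural crest and from paraxial mesoderm, condenses around the otic vesicle and forms the cartilage capsule of the inner ear. It exchanges signals with the otic epithelium, and each tissue shapes the other. Mesenchymal cells are known for transcription factors of the PRRX, TWIST, FOXC and ALX families, for PDGF receptors, and for a matrix of proteoglycans, microfibrils and matricellular proteins. Several of the 35 genes are also made elsewhere. Zeb2 is expressed in neurons and macrophages, Ebf1 in early neurons, Cxcl12 in endothelium and Pdgfrb in pericytes, the contractile cells around small vessels.

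The libraries held 29361382 and 25875555 reads in genes in Brg1cKO and 15357265 and 19132360 in control cells. Levels are given as CPM, read counts brought to a common library size and corrected for library composition by TMM. Smarca4, the targeted gene, stood at 891 and 848 CPM in Brg1cKO and at 816 and 815 CPM in control libraries (log2 fold change 0.09, adjusted p = 0.817, edgeR), so its count over the whole gene gave no check of the labels. Reads from outside the deleted exons check nothing, and every direction given here rests on the labels. The labelled tissue was checked against otic epithelial markers, of which 15 were counted. Their summed level was 338 and 322 CPM in Brg1cKO and 1564 and 1711 CPM in control libraries, and all 15 log2 fold changes were negative. The 35 mesenchymal genes summed to 4970 and 4597 CPM in Brg1cKO and to 4297 and 4468 CPM in control libraries, which is 0.497%, 0.460%, 0.430% and 0.447% of the scaled total in that order. Transcripts of this list were therefore measured in all 4 libraries of cells sorted as otic, but the sum does not show which cells made them. In bulk RNA, fewer cells of a type and less RNA per cell cannot be told apart.

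At least 1 read was found in all 4 libraries for 30 of the 35 genes, and 26 had 100 or more reads in every library. The 5 genes with 0 reads in a library were Meox1, Osr1, Osr2, Tcf21 and Alx1, and in each case the library at 0 was a control. Genes of any kind with a read numbered 20859 and 20902 in Brg1cKO and 17266 and 17086 in control libraries. Reads that were not aligned made up 9.54% and 9.41% of records in Brg1cKO and 20.9% and 19.1% in control libraries. The part of depth and library quality in the zeros was not tested. Vcan, Fbn2 and Fstl1 carried 51.8% and 51.0% of the summed level in Brg1cKO and 49.6% and 47.2% in control libraries. Per kilobase of annotated exon, the order of mean levels began with Fstl1, Vcan, Mfap2, Twist1 and Fbn2 in Brg1cKO and with Fstl1, Mfap2, Twist1, Fbn2 and Vcan in control libraries.

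**Figure D1:**
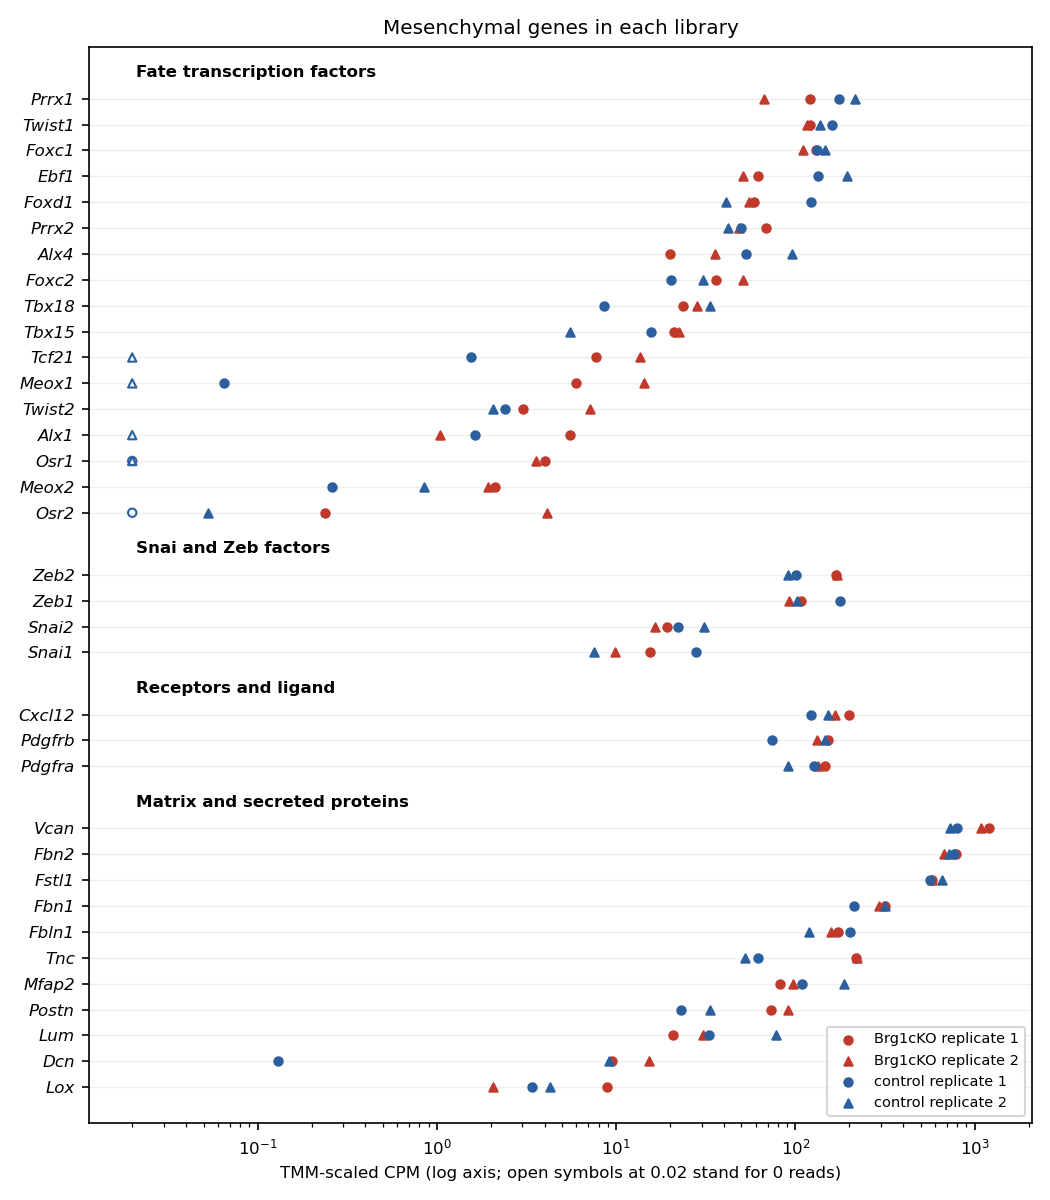
TMM-scaled CPM of the 35 mesenchymal genes (log axis) in each of the 4 libraries, in 4 groups by role and ordered by mean level. Tnc, Postn, Vcan and Zeb2 stand higher in both Brg1cKO libraries, Ebf1, Alx4 and Prrx1 lower, and genes at the foot of the first group have few or no control reads.

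The comparison asked how the mesenchymal genes stood in Brg1cKO cells against control cells. With edgeR's quasi-likelihood test over all genes, none of the 34 genes that passed the low-count filter was called (a Benjamini-Hochberg adjusted p below 0.05), where 5 of 16557 genes, or 0.0302%, were called in all. The lowest adjusted p was 0.0735, for Tnc. At an unadjusted p under 0.05, 9 mesenchymal genes differed (6 higher and 3 lower in Brg1cKO), or 26.5% of those tested against 12.5% of all genes tested. The 6 were set against 7.66% of all genes that were higher at that p, and the 3 against 4.8% that were lower. Limma voom called 2 of the 34 (0.326% of all genes) and DESeq2 called 9 (14.6% of all genes). The newer edgeR moderation called 1 (0.423% of all), a fit of every gene with a read 5 (1.66%) and a fit with the replicate number as a block 3 (0.846%). None was called with RLE scaling (0.0362% of all), a minimum count of 50 (0.0722%), with mitochondrial, ribosomal protein and haemoglobin genes left out (0.0306%) or with libraries thinned to equal depth (0.0373%). The values of the 2 groups did not overlap for 22 of 34 genes, or 64.7%, against 44.1% of all genes tested. Of these, 14 were higher in Brg1cKO, against 26.3% of all genes, and 8 were lower, against 17.8%.

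The median log2 fold change of the 34 genes was 0.35, with quartiles of -0.44 and 1.15, and 21 were positive. Over all genes tested the median was 0.03, 51.5% were positive and 48.5% were negative. A gene could pass the filter through its reads in Brg1cKO alone, and the list was chosen with earlier results of these data known. Osr1 and Meox1 passed so and are among the genes higher at an unadjusted p under 0.05 (edgeR). Tcf21, Meox2, Alx1 and Dcn, all positive, also needed their Brg1cKO reads to pass, because 1 control library held few or no reads of each. These counts, and those by unadjusted p or by overlap, are a description and do not show that the list as a whole moved. The call also depended on single libraries. It stayed at 0 genes without Brg1cKO replicate 2 (0.173% of all genes called) and became 1, Tnc, without Brg1cKO replicate 1 (0.237% of all). It became 13 without control replicate 1 (8 higher and 5 lower) and 13 without control replicate 2 (9 higher and 4 lower), where the spread comes from the Brg1cKO pair alone and 17.6% and 16.9% of all genes were called.

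**Figure D2:**
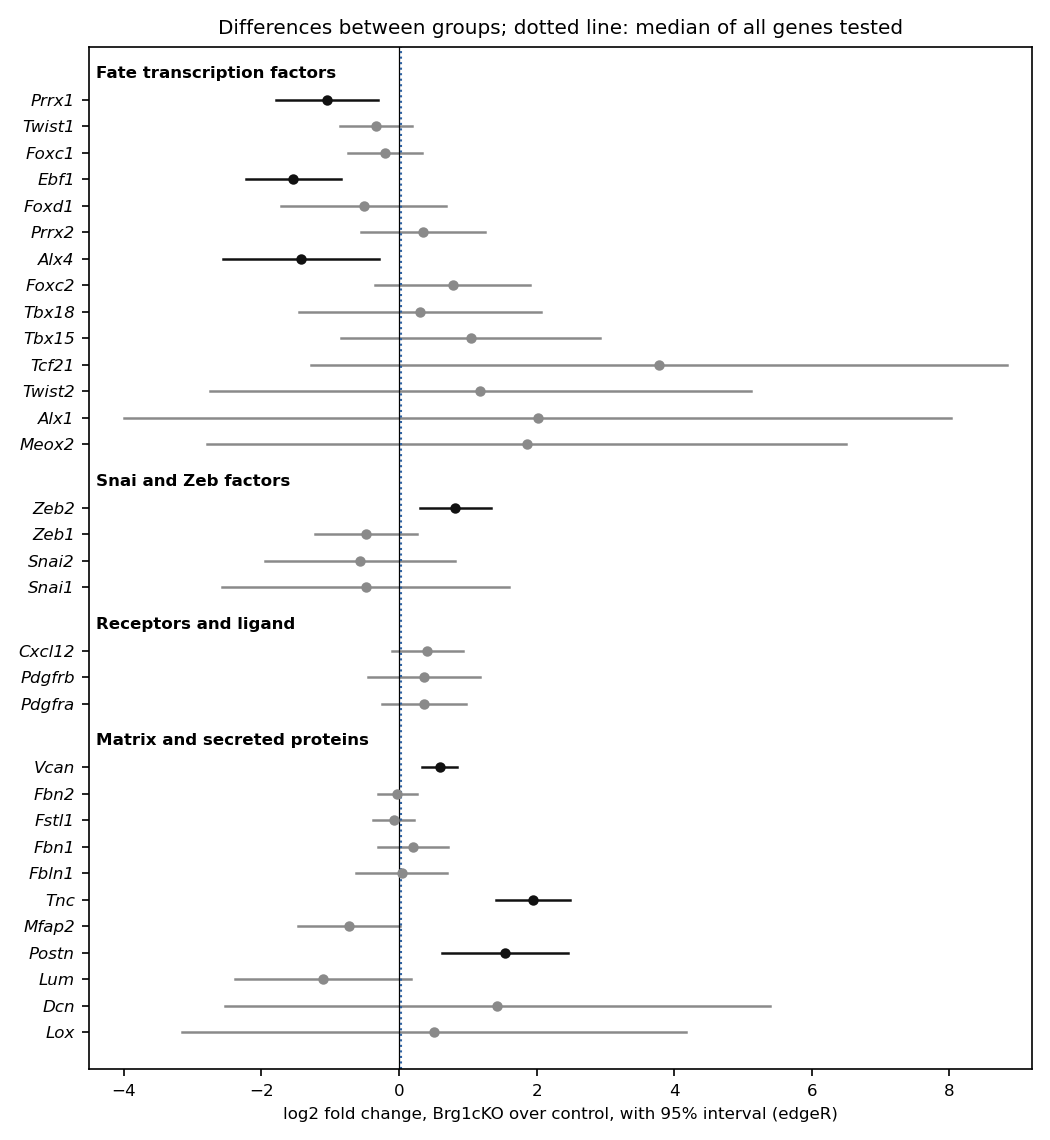
Log2 fold change of Brg1cKO over control (points) with its 95% interval (lines) from edgeR for 32 mesenchymal genes, in black where the interval leaves out 0. Meox1 and Osr1 are not drawn because the controls held 1 and 0 of their reads, and the dotted line marks the median of all genes tested, 0.03.

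Among the 11 matrix genes, 7 log2 fold changes were positive and 4 negative (median 0.21). Their summed level was 3473 and 3248 CPM in Brg1cKO and 2772 and 2906 CPM in control libraries. Tnc encodes tenascin-C, a large matricellular glycoprotein that is laid down where embryonic cells migrate and tissues remodel. It stood at 217 and 219 CPM in Brg1cKO libraries, against 61.5 and 52.1 CPM in control libraries. The replicates lay close together and the groups far apart. The log2 fold change was 1.94 ± 0.228 (SE; 95% interval 1.41 to 2.48), and the adjusted p of 0.0735 (edgeR) missed the threshold. Under 13 other settings its adjusted p ran from 8.92e-24 to 0.0749, and 8 of them called it. Tnc lies on chromosome 4 from 63959785 to 64047015 in mm10 and shares 176 exonic bases with 8030451A03Rik on the opposite strand, a transcript with 0 and 5 reads in Brg1cKO and 6 and 0 reads in control libraries.

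Vcan encodes versican, a chondroitin sulfate proteoglycan that binds hyaluronan in embryonic matrix, and it had the most reads of the 35 genes. It stood at 1204 and 1089 CPM in Brg1cKO libraries and at 797 and 726 CPM in control libraries, with no overlap. The log2 fold change was 0.59 ± 0.107 (SE; 95% interval 0.34 to 0.84; adjusted p = 0.138, edgeR). Settings that called it numbered 6 of 13. Postn encodes periostin, a matricellular protein of periosteum, perichondrium and heart valve cushions. Postn stood at 73.0 and 91.0 CPM in Brg1cKO libraries, against 23.1 and 33.3 CPM in control libraries, again with no overlap. The log2 fold change of Postn was 1.54 ± 0.388 (SE; adjusted p = 0.287, edgeR), and 4 of 13 other settings called it.

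The stretches just upstream of the start sites of Tnc and Vcan, the 2 higher genes with the smallest p, and of Prrx1, the lower gene with the smallest p and enough upstream bases outside exons, are shown for the sites where these transcripts begin. They come from RefSeq promoters of GRCm38.p6 and run 5′ to 3′ on the gene's own strand, which is the minus strand for all 3. Prrx1 is cut where GENCODE places an exon. Capitals mark matches, on either strand, to the GC box GGGCGG and to the core promoter element TATAAA.
Tnc, chr4:64047016-64047265: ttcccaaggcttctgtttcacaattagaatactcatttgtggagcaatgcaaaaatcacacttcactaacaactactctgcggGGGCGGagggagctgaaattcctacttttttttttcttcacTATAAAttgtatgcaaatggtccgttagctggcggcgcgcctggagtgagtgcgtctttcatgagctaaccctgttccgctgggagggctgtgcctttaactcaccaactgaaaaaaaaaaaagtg
Vcan, chr13:89742513-89742762: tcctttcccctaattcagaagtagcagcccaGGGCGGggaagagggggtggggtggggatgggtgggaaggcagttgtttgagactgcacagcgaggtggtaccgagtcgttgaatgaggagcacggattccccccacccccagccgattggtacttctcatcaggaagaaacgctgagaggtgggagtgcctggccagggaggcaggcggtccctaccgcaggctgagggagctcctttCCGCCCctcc
Prrx1, chr1:163313711-163313900: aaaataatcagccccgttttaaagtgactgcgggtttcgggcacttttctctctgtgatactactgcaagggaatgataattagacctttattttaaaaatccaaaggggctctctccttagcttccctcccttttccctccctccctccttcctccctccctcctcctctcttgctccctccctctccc
The Tnc window held 1 match to GGGCGG and 1 to TATAAA, the Vcan window 2 matches to GGGCGG, and the Prrx1 window neither. No match overlapped another. Across 27025 genes with 250 upstream bases, 33.0% held GGGCGG and 13.0% held TATAAA, against 11 and 3 of the 21 mesenchymal genes in that table. For these counts no window was cut where GENCODE places an exon, so some matches may lie in exons. The E-boxes CACCTG, which Snai and Zeb factors bind, and CATATG, which Twist1 binds, were searched as well. They stood in 1 (Snai1) and 0 of the 21 windows, against 17.1% and 3.48% of all. A match is a run of letters and not a shown site.

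Of the microfibril genes among the members, Fbn1, Fbn2 and Fbln1 overlapped between the groups and Mfap2 did not, where 44.1% of all genes tested did not overlap. Fbn1 and Fbn2 encode fibrillins, the backbone of extracellular microfibrils, Mfap2 a small protein bound to them, and Fbln1 a fibulin of basement membranes and elastic fibres. Fbn2 stood at 789 and 678 CPM in Brg1cKO and at 770 and 723 CPM in control libraries, and its log2 fold change of -0.03 had a 95% interval from -0.31 to 0.26. Fbn1 stood at 317 and 292 CPM in Brg1cKO, against 211 and 317 CPM in control libraries. Both pairs overlapped. Fbln1 stood at 172 and 158 CPM in Brg1cKO, inside the control values of 202 and 119 CPM, and the interval of its log2 fold change ran from -0.62 to 0.69. Mfap2 stood at 81.6 and 97.0 CPM in Brg1cKO, below the control values of 109 and 186 CPM (log2 fold change -0.72 ± 0.313 SE, adjusted p = 0.413, edgeR).

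Fstl1 encodes a secreted follistatin-like glycoprotein that binds BMP ligands. It was level between groups, with 581 and 576 CPM in Brg1cKO and 562 and 658 CPM in control libraries, and its log2 fold change of -0.08 had a 95% interval from -0.37 to 0.22. Lum and Dcn encode lumican and decorin, small leucine-rich proteoglycans that bind collagen fibrils. Lum stood at 20.8 and 30.7 CPM in Brg1cKO libraries, below 32.8 and 78.1 CPM in control libraries (log2 fold change -1.11, 95% interval -2.39 to 0.17). Dcn stood at 9.53 and 15.3 CPM in Brg1cKO, above control values of 0.130 and 9.07 CPM that differed widely from each other (log2 fold change 1.43, 95% interval -2.53 to 5.39). Lox encodes the enzyme that crosslinks collagen and elastin. Its levels were 8.91 and 2.04 CPM in Brg1cKO and 3.38 and 4.30 CPM in control libraries, so the control pair lay inside the Brg1cKO pair.

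The transcription factors of mesenchymal fate went in both directions. Of 16 tested, 10 had positive and 6 had negative log2 fold changes. The negative ones were Prrx1, Twist1, Foxc1, Foxd1, Alx4 and Ebf1, and the group's summed level was 691 and 631 CPM in Brg1cKO, against 874 and 942 CPM in control libraries. Ebf1, a zinc-binding helix-loop-helix factor of mesenchyme, early neurons and B cells, stood at 61.9 and 51.1 CPM in Brg1cKO, against 133 and 195 CPM in control libraries. Its higher Brg1cKO value lay well below its lower control value. Ebf1 had a log2 fold change of -1.53 ± 0.294 (SE; 95% interval -2.23 to -0.84; adjusted p = 0.165, edgeR), and 5 of 13 other settings called it.

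Prrx1 and Alx4 encode paired-type homeodomain factors of limb and craniofacial mesenchyme. Prrx1 stood at 121 and 67.1 CPM in Brg1cKO libraries, against 174 and 214 CPM in control libraries. Alx4 stood at 20.0 and 35.4 CPM in Brg1cKO libraries, against 53.0 and 95.6 CPM in control libraries. For both genes the groups did not overlap, although replicates differed by as much as 1.8-fold. The log2 fold changes were -1.05 ± 0.317 for Prrx1 and -1.42 ± 0.482 for Alx4 (SE), with adjusted p-values of 0.365 and 0.368 by edgeR, and 4 and 2 of 13 other settings called them. In mm10, Prrx1 lies on chromosome 1 (163245119 to 163313710), Alx4 on chromosome 2 (93642384 to 93681339) and Ebf1 on chromosome 11 (44617317 to 45008091).

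Twist1, a helix-loop-helix factor that cranial mesenchyme needs, stood at 121 and 116 CPM in Brg1cKO, below 161 and 137 CPM in control libraries (log2 fold change -0.33, 95% interval -0.85 to 0.19). Foxc1, a forkhead factor of head mesenchyme and vessels, stood at 131 and 110 CPM in Brg1cKO, against 131 and 146 CPM in control libraries. The nearest Foxc1 libraries of the 2 groups were almost level. Foxd1, a forkhead factor of mesenchyme around the eye and in the kidney stroma, stood at 58.8 and 54.8 CPM in Brg1cKO, between control values of 122 and 40.9 CPM. Prrx2, a paralogue of Prrx1, stood at 68.6 and 48.4 CPM in Brg1cKO and at 49.8 and 42.1 CPM in control libraries, which overlapped. Foxc2, a paralogue of Foxc1, stood at 36.2 and 50.8 CPM in Brg1cKO, above 20.3 and 30.4 CPM in control libraries.

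Other transcription factors had few or no reads in the control libraries. Osr1, a zinc finger factor of lateral and intermediate mesoderm, had 117 and 93 reads in Brg1cKO libraries and 0 and 0 in control libraries, so its scaled level was at least 43.4-fold higher against a floor of 3 reads over the control group. Meox1, a homeodomain factor of somites and sclerotome, had 174 and 370 reads in Brg1cKO libraries and 1 and 0 in control libraries, a ratio of 337 with a 95% exact binomial counting interval from 60.3 to 13351. Such intervals and floors cover counting error alone, because the reads carry no molecular identifiers and need not be separate molecules. Their adjusted p-values were 0.368 for Osr1 and 0.329 for Meox1 by edgeR. Osr2, a paralogue of Osr1, was the gene that did not pass the filter, with 7 and 107 reads in Brg1cKO and 0 and 1 in control libraries (ratio 70.7, counting interval 12.4 to 2817).

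Tcf21, a helix-loop-helix factor of epicardium and of pharyngeal and visceral mesoderm, stood at 7.75 and 13.7 CPM in Brg1cKO, above 1.56 and 0 CPM in control libraries. Tbx15 and Tbx18 encode T-box factors of skeletal and periotic mesenchyme. Tbx15 stood at 20.9 and 22.5 CPM in Brg1cKO, above 15.6 and 5.52 CPM in control libraries. Tbx18, which periotic fibrocytes need, stood at 23.5 and 28.2 CPM in Brg1cKO, between control values of 8.51 and 33.4 CPM. Twist2, a paralogue of Twist1, stood at 3.01 and 7.17 CPM in Brg1cKO, above 2.40 and 2.07 CPM in control libraries (log2 fold change 1.18 ± 1.67 SE). Meox2, a paralogue of Meox1, stood at 2.12 and 1.93 CPM in Brg1cKO, above 0.260 and 0.849 CPM in control libraries (log2 fold change 1.85 ± 1.98 SE). Alx1, a paralogue of Alx4, stood at 5.53 and 1.04 CPM in Brg1cKO, against 1.62 and 0 CPM in control libraries, which overlapped (log2 fold change 2.02 ± 2.55 SE). The intervals of Tcf21, Tbx15, Twist2, Meox2 and Alx1 all held 0.

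Snai1, Snai2, Zeb1 and Zeb2 encode zinc finger repressors of epithelial genes that act when epithelium turns into mesenchyme. Zeb2 stood at 168 and 170 CPM in Brg1cKO libraries, against 101 and 90.8 CPM in control libraries, with close replicates and no overlap. Zeb2 had a log2 fold change of 0.82 ± 0.220 (SE; 95% interval 0.30 to 1.33; adjusted p = 0.313, edgeR), and 3 of 13 other settings called it. Zeb2 overlaps its antisense gene Zeb2os over 653 of 19942 exonic bases, and Zeb2os had 16 and 105 reads in Brg1cKO and 0 and 0 in control libraries. The other 3 had negative log2 fold changes. Zeb1 stood at 108 and 92.3 CPM in Brg1cKO, against 177 and 102 CPM in control libraries. Snai2 stood at 19.3 and 16.5 CPM in Brg1cKO, below 22.2 and 31.1 CPM in control libraries, and Snai1 at 15.4 and 9.91 CPM in Brg1cKO, between control values of 28.0 and 7.53 CPM. Of 13 tested genes of epithelial and mesenchymal state around these factors, 3 had positive and 10 negative log2 fold changes, and 0 passed the test in either direction. Epcam, an epithelial adhesion molecule, had the smallest p, with 42.8 and 37.1 CPM in Brg1cKO and 144 and 205 CPM in control libraries (adjusted p = 0.0842, edgeR). Esrp1, an epithelial splicing factor, stood at 37.1 and 23.7 CPM in Brg1cKO, below 80.0 and 91.0 CPM in control libraries. Fn1, which encodes fibronectin, stood at 2599 and 2545 CPM in Brg1cKO and at 1775 and 1395 CPM in control libraries. Vim, a mesenchymal intermediate filament, stood at 2018 and 1923 CPM in Brg1cKO and at 1666 and 1422 CPM in control libraries. These genes were named for their small p. Of the same list, the cadherin genes Cdh11 and Cdh2 went the other way from Fn1 and Vim. Cdh11 stood at 299 and 382 CPM in Brg1cKO, below 436 and 403 CPM in control libraries, and Cdh2 overlapped between the groups.

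The receptors and the chemokine had positive log2 fold changes of 0.36 to 0.41. Pdgfra and Pdgfrb encode the receptors for platelet-derived growth factors, and Cxcl12 a chemokine that guides crest cells, blood cells and vessels. Pdgfra stood at 147 and 133 CPM in Brg1cKO, above 126 and 90.7 CPM in control libraries. Pdgfrb stood at 151 and 131 CPM in Brg1cKO, and one control library, at 73.6 CPM, lay below that pair while the other, at 146 CPM, lay inside it. Cxcl12 stood at 198 and 166 CPM in Brg1cKO, above 122 and 151 CPM in control libraries. None of these receptors and ligands passed, with a lowest adjusted p of 0.551, for Cxcl12 (edgeR). Of the 4 PDGF ligands, 1 was positive and 3 were negative, and Pdgfc, a ligand of Pdgfra, stood at 49.8 and 48.0 CPM in Brg1cKO, against 86.6 and 157 CPM in control libraries (adjusted p = 0.327, edgeR). Of 3 other genes around Cxcl12, 1 was positive and 2 were negative, and 0 passed. Cxcl14, a related chemokine, had the smallest p, with 12.2 and 6.40 CPM in Brg1cKO and 0 and 0 CPM in control libraries (adjusted p = 0.308, edgeR). Cxcr4, the signalling receptor for Cxcl12, stood at 13.0 and 14.2 CPM in Brg1cKO, against 18.1 and 35.7 CPM in control libraries. Ackr3, a scavenger receptor for Cxcl12, overlapped between the groups (log2 fold change -0.40 ± 0.619 SE, adjusted p = 0.890, edgeR).

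Paralogues were compared within each library as a ratio of levels per kilobase of exon, which leaves library scaling out. Of 10 pairs, 7 had reads of both genes in all libraries. The Prrx1 to Prrx2 ratio was 0.313 and 0.246 in Brg1cKO, against 0.620 and 0.900 in control libraries. The Zeb1 to Zeb2 ratio was 1.25 and 1.06 in Brg1cKO, against 3.42 and 2.18 in control libraries. The Foxc1 to Foxc2 ratio was 1.68 and 1.01 in Brg1cKO, against 3.01 and 2.23 in control libraries. For these 3 pairs, and for Twist1 to Twist2 (78.2 and 31.6 in Brg1cKO, 130.2 and 129 in control libraries), the groups did not overlap and the first gene took a smaller part of its pair in Brg1cKO. The ratios of Snai1 to Snai2, Fbn1 to Fbn2 and Pdgfra to Pdgfrb overlapped between groups. The ratios are a description and were not tested. No share of non-overlapping ratios was taken over other gene pairs, so the count of pairs shows no general shift. Of all single genes tested, 44.1% did not overlap between groups. Twist2 had only 37 and 39 reads in control libraries. Reads shared by near-identical stretches of paralogues may have been dropped from both genes, which was not measured.

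**Figure D3:**
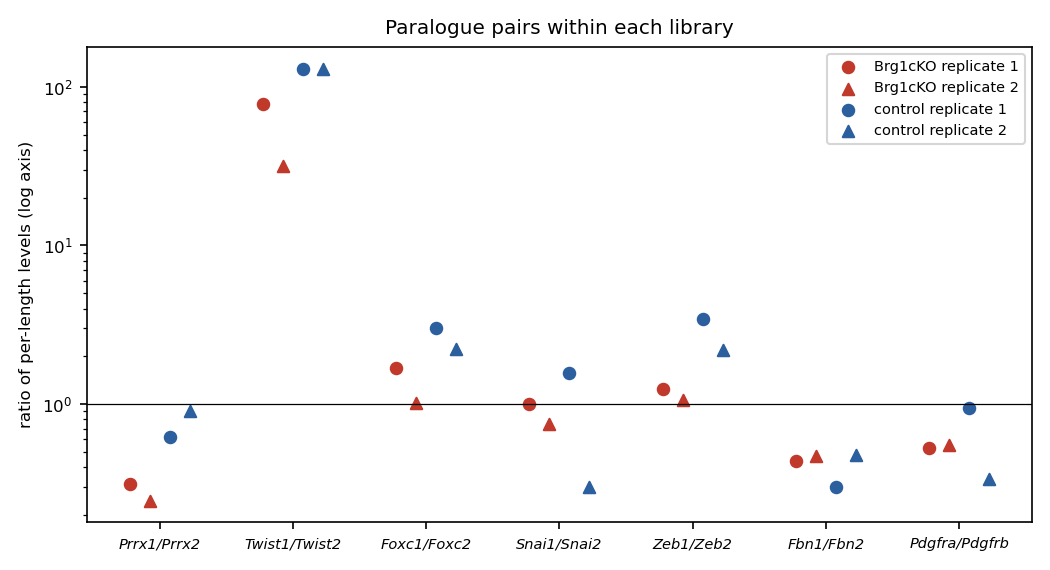
Ratio of per-length levels of the first to the second gene in 7 paralogue pairs (log axis), 1 point per library, with a line at a ratio of 1. The Brg1cKO points lie below both control points for the Prrx, Twist, Foxc and Zeb pairs, and among them for the other 3.

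Other genes of mesenchymal matrix were taken from lists drawn up beside the 35. Of 18 tested genes of microfibrils, elastic fibres and their crosslinking, 12 were positive and 6 negative, 0 passed in either direction, and the median log2 fold change was 0.08. Emilin2, an elastic fibre glycoprotein, stood at 62.0 and 74.3 CPM in Brg1cKO, against 21.4 and 17.5 CPM in control libraries, and Ltbp4, which binds latent TGF-beta, at 141 and 120.5 CPM in Brg1cKO, against 57.7 and 38.9 CPM in control libraries (adjusted p = 0.234 and 0.228, edgeR). Eln, the elastin gene, stood at 23.3 and 19.3 CPM in Brg1cKO, against 0.780 and 4.03 CPM in control libraries. Loxl3, a relative of Lox, went the other way, with 22.5 and 12.4 CPM in Brg1cKO and 59.3 and 39.9 CPM in control libraries.

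Of 16 tested proteoglycan and matricellular genes, 6 were positive and 10 negative, and 0 passed. Hapln1, a link protein that fixes versican to hyaluronan, stood at 331 and 337 CPM in Brg1cKO, against 93.7 and 154 CPM in control libraries (adjusted p = 0.131, edgeR), and lies beside Vcan on chromosome 13 in mm10, at 89539796 to 89611652 against 89655312 to 89742509. Has2, the enzyme that makes hyaluronan, stood at 36.0 and 35.5 CPM in Brg1cKO, against 10.3 and 15.1 CPM in control libraries. Versican, its link protein and the hyaluronan synthase each had control libraries below both Brg1cKO libraries. Hapln1 and Has2 were named for their small p, and others of that list went the other way. Ncan stood at 4.47 and 5.63 CPM in Brg1cKO, below 11.2 and 27.0 CPM in control libraries. Acan stood at 2.42 and 1.31 CPM in Brg1cKO, below 2.47 and 9.44 CPM in control libraries. Thbs2, a matricellular thrombospondin, stood at 4.24 and 7.06 CPM in Brg1cKO, against 54.3 and 17.9 CPM in control libraries.

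Of 25 other tested transcription factors of head mesenchyme, 7 were positive and 18 negative, with a median log2 fold change of -0.60, and 0 passed. Six2, a homeodomain factor of head mesenchyme, stood at 28.7 and 23.5 CPM in Brg1cKO, against 136 and 146 CPM in control libraries (log2 fold change -2.43 ± 0.303 SE, adjusted p = 0.0816, edgeR). Scx, a helix-loop-helix factor of tendon precursors, stood at 5.40 and 6.94 CPM in Brg1cKO, against 39.4 and 18.4 CPM in control libraries. Nfatc4 stood at 57.7 and 84.6 CPM in Brg1cKO, against 187 and 139 CPM in control libraries. Foxf2 went the other way, with 29.9 and 41.0 CPM in Brg1cKO, above 12.9 and 13.3 CPM in control libraries (adjusted p = 0.368, edgeR).

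Marker lists of other cells differed in level between the groups. They were chosen with earlier results of these data known, so their counts by direction are a description. The 15 heart muscle genes, of which 14 of 14 tested had positive log2 fold changes, summed to 1148 and 1148 CPM in Brg1cKO and to 203 and 132 CPM in control libraries. The 12 macrophage genes, all positive, summed to 1539 and 1450 CPM in Brg1cKO and to 344 and 344 CPM in control libraries. The mural list, of vascular smooth muscle and pericytes, had 7 of 8 tested genes positive and summed to 578 and 620 CPM in Brg1cKO and to 382 and 436 CPM in control libraries. The epicardial list had 5 of 6 tested genes positive, each with no overlap between groups. Its sum overlapped, at 75.9 and 72.6 CPM in Brg1cKO and 42.4 and 84.2 CPM in control libraries. Most of that control sum was Krt19, the negative gene, at 17.8 and 7.79 CPM in Brg1cKO and 33.0 and 76.4 CPM in control libraries. In the other direction, 10 of 10 neuronal genes were negative (481 and 429 CPM in Brg1cKO, 1438 and 1445 CPM in control libraries), and so were 6 of 7 cartilage genes (496 and 435 CPM in Brg1cKO, 738 and 801 CPM in control libraries), with Matn1 and Snorc at 0 in all 4 libraries.

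Endothelial genes summed to 3365 and 3315 CPM in Brg1cKO and to 3058 and 2990 CPM in control libraries, with 8 of 12 positive. Crest and glial genes summed to 234 and 229 CPM in Brg1cKO and to 349 and 453 CPM in control libraries, but 3 of 7 were positive, 4 negative, and 4 overlapped between groups. Red blood cell genes summed to 229 and 212 CPM in Brg1cKO and to 635 and 662 CPM in control libraries, with 1 of 9 positive. Surface ectoderm genes summed to 193 and 170 CPM in Brg1cKO and to 287 and 251 CPM in control libraries, with 1 of 4 positive. Hindbrain genes (757 and 752 CPM in Brg1cKO, 727 and 907 CPM in control libraries, with Hes5 at 0 in all) and skeletal muscle genes (8.27 and 9.56 CPM in Brg1cKO, 1.30 and 30.5 CPM in control libraries) overlapped, with 3 of 8 and 1 of 3 positive. Heart, mural, macrophage and nerve cells express some of the 35 genes, Postn, Vcan, Tcf21, Pdgfrb, Zeb2 and Ebf1 among them. Their part in the differences of the mesenchymal genes was not tested.

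**Figure D4:**
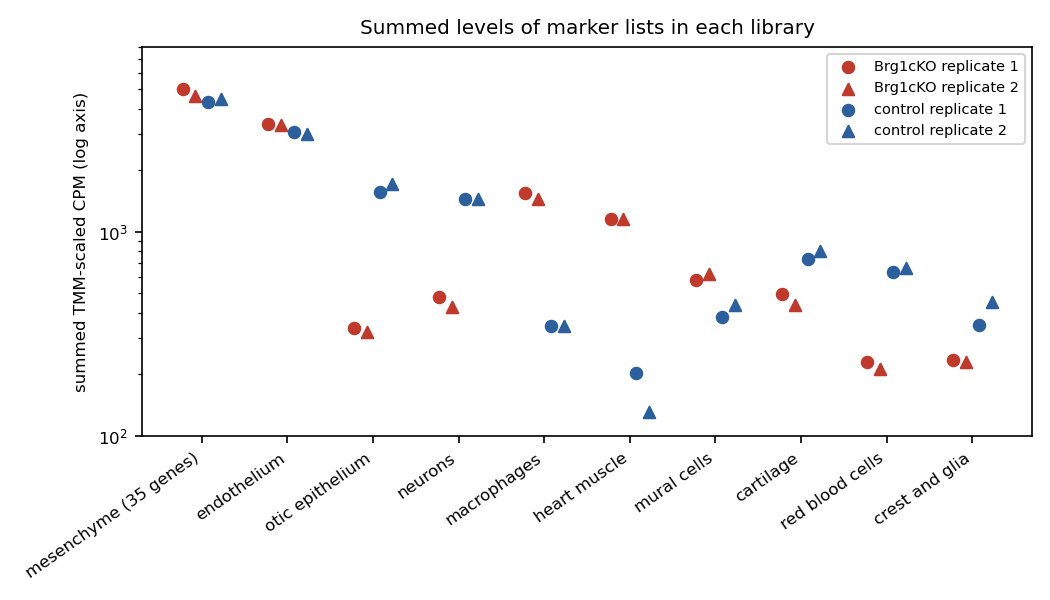
Summed TMM-scaled CPM of the 35 mesenchymal genes and of 9 marker lists for other cells (log axis), 1 point per library. The mesenchymal sum is slightly higher in both Brg1cKO libraries, at 4970 and 4597 CPM against 4297 and 4468 CPM in control libraries. Much of that difference lies in Vcan, at 1204 and 1089 CPM in Brg1cKO and 797 and 726 CPM in control libraries. The sum of the transcription factors of mesenchymal fate alone (not drawn) is lower in Brg1cKO. The heart and macrophage sums are higher in both Brg1cKO libraries by a larger factor than the mesenchymal sum, and the otic epithelial and neuronal sums are lower.

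The mesenchymal genes varied more between control replicates than between Brg1cKO replicates, and the control libraries were also the shallower ones. The median absolute log2 ratio between replicates was 0.24 in Brg1cKO and 0.53 in control libraries for the 34 genes, on a scale of CPM plus 0.5, and 0.37 and 0.75 for all genes tested. The difference between group means exceeded both replicate differences for 15 of the 34 genes, or 44.1%, against 31.9% of all genes tested. Tnc and Zeb2 were among those 15. So were Osr1 and Meox1, which passed the filter through their Brg1cKO reads alone. Tcf21 and Meox2 were among them as well, and their control reads alone would not have passed the filter. This count is therefore a description too. Dcn, Tbx18, Snai1, Foxd1, Lox and Alx1 had larger differences between replicates than between groups. The wide control pairs of Foxd1, Snai1, Tbx18 and Pdgfrb gave log2 fold changes of the opposite sign when control replicate 1 was left out, and Lox did so without Brg1cKO replicate 1.

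**Figure D5:**
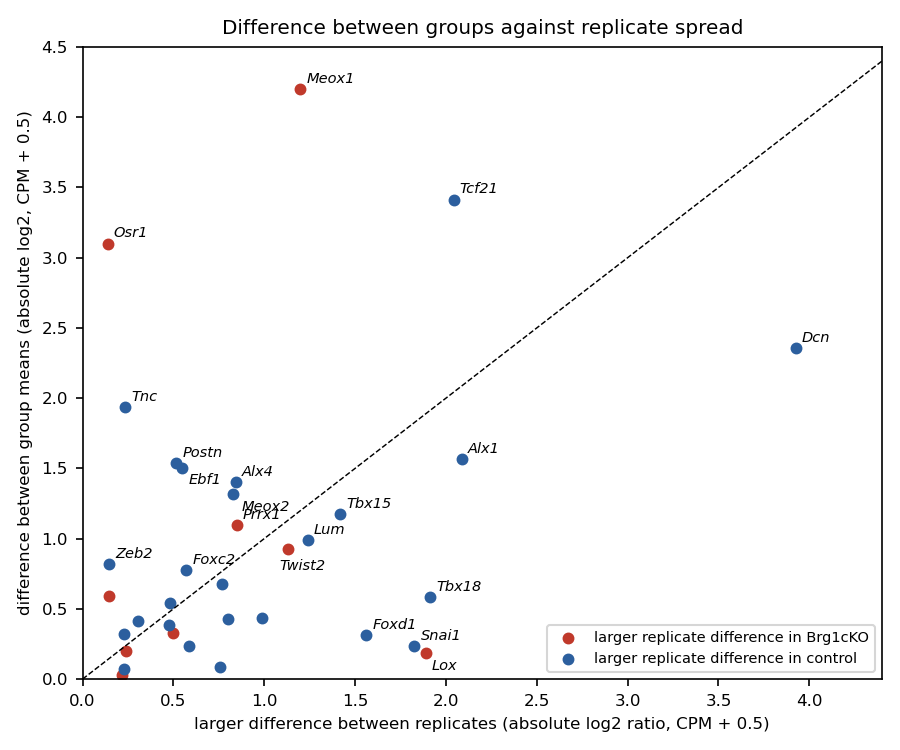
Absolute log2 difference between group means against the larger absolute log2 difference between replicates (both on CPM + 0.5) for the 34 tested mesenchymal genes, coloured by the group whose replicates differ more. Above the dashed line of equality lie 15 genes, Meox1, Osr1 and Tnc farthest from it, and Lox lies farthest below it.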

How the data were processed

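Sorted cells gave 4 mouse libraries (2 Brg1cKO, 2 control), made by random-primed, strand-specific SMART-seq and sequenced as single-end reads of 75 bp, per the labels' protocols. The authors deposited raw read counts per Ensembl gene. The submitters' processing notes name HISAT2, HTSeq, DESeq2 and mm10. The counting annotation and the strand setting were not given in the sources used here, and reads of a gene and its antisense partner may have been exchanged. The 5 lines that name no gene held 36.0% and 36.3% of records in Brg1cKO and 51.8% and 50.7% in control libraries and were left out.

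Symbols, positions and exonic lengths came from GENCODE M21, which matched 52489 of 52636 identifiers. In R 4.3.3, edgeR 4.0.16 (filterByExpr with a minimum count of 10, TMM, robust quasi-likelihood F-test) tested the counts, with Benjamini-Hochberg adjustment over 16557 genes. Fold changes are Brg1cKO over control. In all, 13 other settings were run, with limma 3.58.1 and DESeq2 1.42.0 among the tools. The fit was tested on simulated counts. The members and lists were chosen with earlier results of these data known. The text names all members, with values for those at an unadjusted p below 0.05, the 8 of highest mean level and those beyond a log2 fold change of 1 in either direction, and it adds values of others. Of each other pathway list it names 1 to 4 genes, taken from the smallest p upwards, with Ncan, Acan, Cdh11, Cdh2 and Foxf2 besides. Of cell type lists it names those at 0 throughout, and Krt19. Protein sequences were not used here.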

Additional observations from a re-analysis of the deposited data

How the results depend on the processing

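The number of mesenchymal genes called, 0 with edgeR's default form, became 5 with every gene of at least 1 count (Postn, Vcan and Tnc higher, Prrx1 and Ebf1 lower), 1 with the newer edgeR moderation (Tnc), 2 with limma voom (Vcan and Tnc) and 9 with DESeq2 (6 higher and 3 lower). The number of all genes called, 5, became 417, 70, 54 and 2422 in the same settings and 10 with a minimum count of 50. With RLE scaling, thinned libraries or without mitochondrial, ribosomal protein and haemoglobin genes it was 5 or 6 and no mesenchymal gene was called. With each library left out, all genes called ran from 33 to 3519 and mesenchymal genes called from 0 to 13. The cause was not tested, except that without a control the spread comes from the closer Brg1cKO pair, the lone library being assumed to vary like it. The median log2 fold change of all genes, 0.03, became 0.29 without either control, 0.21 with every gene and 0.16 with voom or the replicate block. The replicate number as a block gave 140 calls in all and 3 among the mesenchymal genes (Vcan and Tnc higher, Ebf1 lower), but same-numbered replicates did not deviate together (correlation -0.0053), so they share only a number.

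The median log2 fold change of the mesenchymal genes stayed positive, at 0.26 to 0.51 with a library left out, and 20 to 22 genes were positive. Signs turned for Fbln1 with RLE scaling (-0.0019) and DESeq2 (-0.0019). With a library left out, log2 fold changes ran from -0.31 to 0.47 for Fbln1, -0.90 to 1.22 for Lox, -0.13 to 0.086 for Fbn2, -0.37 to 1.58 for Tbx18, -1.12 to 0.48 for Foxd1, -1.16 to 0.75 for Snai1, -0.048 to 0.92 for Pdgfrb, -0.054 to 0.51 for Fbn1 and -0.18 to 0.023 for Fstl1. Of 34 genes, 14 were called under no setting. The 95% intervals of Twist2, Meox2, Tcf21, Alx1, Dcn and Lox, each with under 100 reads in a library, held 0 and showed no direction.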
